A study of Homo sapiens with 24 samples.

Results

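The 42 genes described here were a list, drawn up by gene symbol, of actins, of the transcription regulators SRF, MYOCD, MRTFA and MRTFB, and of proteins that bind, sever, cap, branch, bundle or decorate actin filaments. They were 42 of the 34834 genes to which deposited transcripts could be assigned. The rule used symbols and no measured value, but the list was drawn up with earlier results of these data known. SK-MES-1, an established human line from lung cancer of the squamous type, was deprived of serum for 3 h and then either received 2 ng/ml of TGFβ1 or nothing, and RNA was taken at 0, 8, 24 and 48 h. Each of the 8 groups held 3 libraries, which gave 24 RNA-Seq libraries, and both arms shared the cell line, the plating and the starvation. The question was which actin and contractile genes differed between the arms, in which direction and when. A single line stands for this tumour type here, and the arm at 0 h had not yet been exposed for any time.

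Actin exists as monomers and as filaments, and cells shift the balance with proteins that hold monomers (profilins, thymosins), cut filaments (cofilins, destrin, gelsolin), cap their ends (capping protein, tropomodulins), branch them (the Arp2/3 complex) or bundle them (fascin, palladin). The same balance feeds back on transcription: monomeric actin holds the cofactors MRTFA and MRTFB in the cytoplasm, and when monomers are used up the cofactors enter the nucleus and bind SRF on a DNA element called the CArG box, at genes for actins and contractile proteins. TGFβ is a long-known inducer of such contractile genes in fibroblasts and in epithelial cells that become mesenchymal.

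The libraries held between 46613589 and 77964234 estimated counts, with a median of 54120879. Values below are TPM (a share of all transcripts that corrects for their length) for levels, and log2 differences of normalized counts from limma voom for comparisons, where an adjusted p below 0.01 over 17453 tested genes counted as a call. At 0 h no member and no other gene passed (0% called), with 800 genes at an unadjusted p under 0.05, 0 calls by edgeR and 8 by DESeq2. The names of the deposited tables carry 4 codes that split the arms at every time point and the early from the late time points. Code and treatment therefore cannot be told apart in the direct comparisons at 8, 24 and 48 h. The change from time 0 by 8 h, within the code of each arm, was tested as well. The labelled squamous identity could be checked only in part. KRT8 and KRT18, keratins of epithelial cells in general, stood between 375 and 989 TPM in every library and TP63 between 7.69 and 37.5 TPM. The squamous markers KRT5, KRT6A, KRT14 and DSG3 were at or near 0 (at most 0.102 TPM). Of the 11 squamous and epithelial markers 6 or 7 reached 1 TPM in a group, with sums of 858 to 2030 TPM a library. Some of these markers moved with the treatment: KRT17, a stress keratin, stood at 5.41 ± 0.613 TPM in untreated and 70.5 ± 1.06 TPM in treated cells at 48 h, and SOX2, a squamous lineage factor, at 5.23 ± 0.477 and 0.432 ± 0.0557 TPM (mean ± SD, n = 3). The 5 blood and endothelial markers summed to 12.7 to 42.5 TPM. Of the smooth muscle markers, MYH11 was at most 0.805 TPM and DES at most 0.376 TPM, while the level of SMTN is not given here. Of the 10 smooth muscle and fibroblast markers 5 to 7 reached 1 TPM in a group, so the low values of MYH11 and DES do not stand for the list. COL1A1, a collagen gene of fibroblasts, moved with the treatment and stood at 158 ± 7.16 TPM in untreated and 2255 ± 169.8 TPM in treated cells at 48 h, while DCN (decorin, another fibroblast gene) went the other way, with 12.2 ± 1.13 TPM untreated and 1.47 ± 0.327 TPM treated. Of the 9 tested smooth muscle and fibroblast markers 7 were called over 8, 24 and 48 h together (77.8%, against 42.5% of all tested genes). Of these, 4 were higher (against 21% of all genes) and 3 lower (against 21.5%). The summed level of the 10 smooth muscle and fibroblast markers was 212 to 331 TPM in untreated and 810 to 2419 TPM in treated libraries from 8 h on, most of it COL1A1 in treated cells (2059 to 2359 TPM at 48 h), none of the 10 was at 0 throughout a group, and their part in the results below was not tested. In bulk RNA, more cells of one state and more RNA per cell cannot be told apart.

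Of the 42 genes, 41 had enough counts to be tested, and the exception was ACTG2, an actin of enteric smooth muscle, with at most 4.5 counts in a library. Over 8, 24 and 48 h together, 23 of the 41 passed the F-test of limma voom (56.1%, against 42.5% of all tested genes), 19 of them higher on average after TGFβ (against 21% of all genes) and 4 lower (against 21.5%). At 8 h 16 passed (39%, against 16.4% of all genes), 15 higher (against 9.12%) and 1 lower (7.26%). At 24 h 18 passed (43.9%, against 29.3%), 14 higher (15.4%) and 4 lower (13.8%). At 48 h 18 passed as well (43.9%, against 32.6%), 14 higher (16.1%) and 4 lower (16.4%). Without the untreated 48 h replicate 3 the count at 48 h was 11. The median log2 difference of the members was 0.19, 0.14 and 0.13 at 8, 24 and 48 h, against -0.016, -0.015 and -0.013 for all tested genes. Libraries of the arms did not overlap in TPM for 26 members at 8 h (19 above and 7 below, against 47.4% of all genes), 19 at 24 h (15 above and 4 below, against 40.3%) and 28 at 48 h (22 above and 6 below, against 55.1%). By time points, 9 members were called at all of 8, 24 and 48 h (8 always higher), 9 at a pair of them, 7 at 1 and 16 at none. For these counts no share over all genes was formed, so they are not set against a background. Relative to time 0 within each arm, 7 members changed differently between the arms by 8 h (17.1%, against 7.88%). SRF, MRTFA, TAGLN2, CNN2, TMSB4X and CAPZB went upward (6 members, against 5.05%) and SYNPO2 downward (2.84%). That count was 4 without any one of the untreated 0 h replicate 1, the untreated 8 h replicates 1 and 2 and the TGFβ 8 h replicates 2 and 3. The call of TMSB4X was lost without any one of 6 libraries (adjusted p 0.0108 to 0.0191) and that of CAPZB without any one of 4 (0.0102 to 0.0142). ACTG1, ACTB, CNN1, CALD1, WDR1, CAP1, TMOD1, ARPC5 and PALLD were called at 8 h. Their change since 0 h was not called (limma, adjusted p 0.0128 to 0.266).

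**Figure D1:**
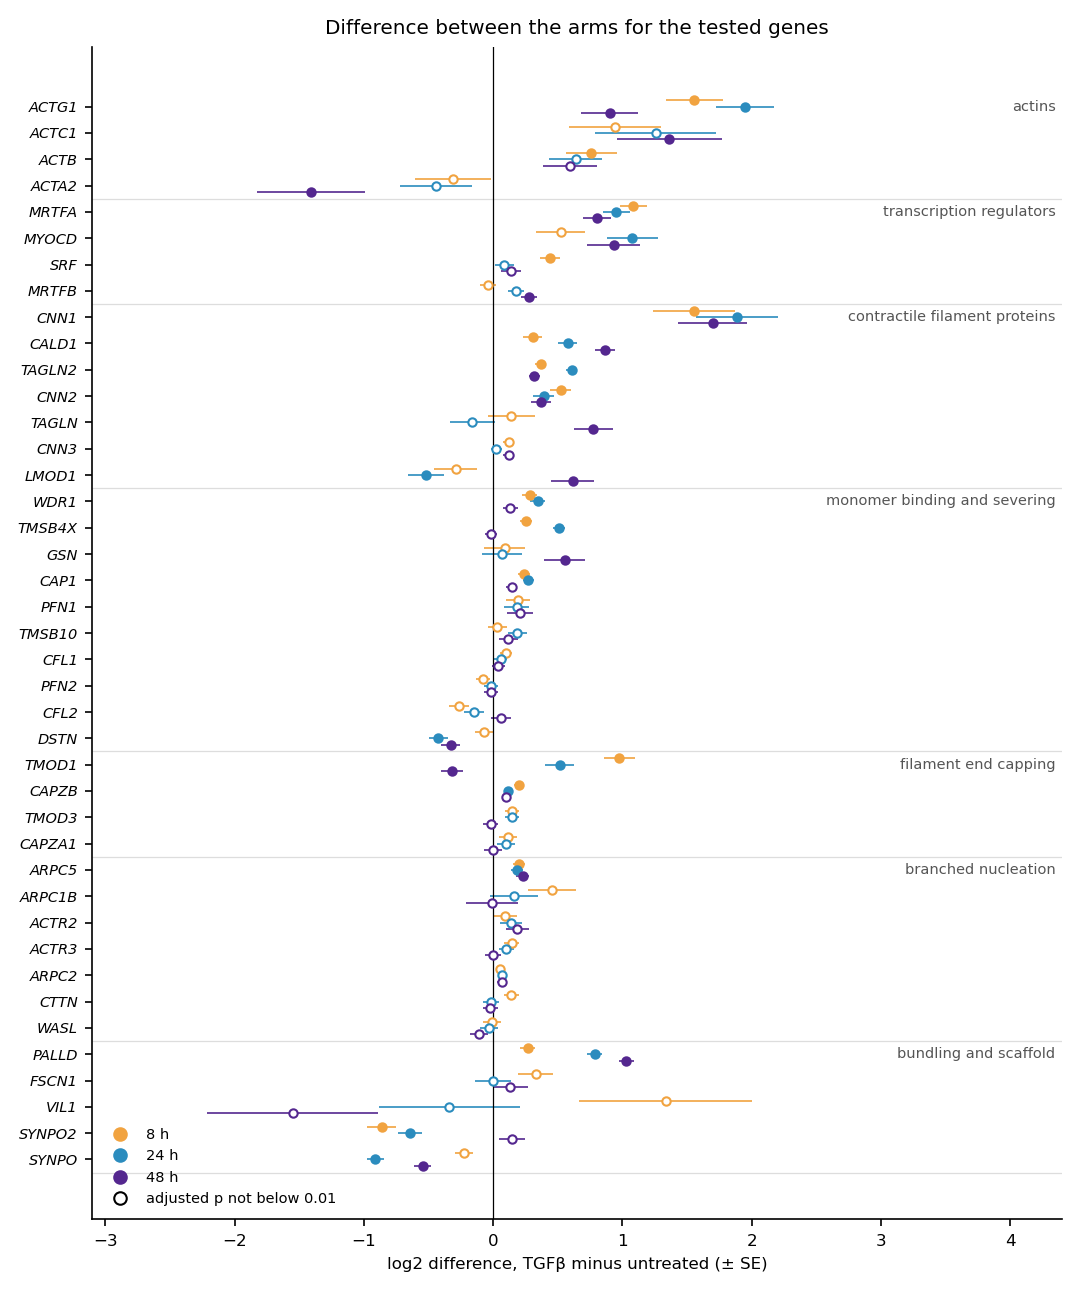
Log2 difference between the arms (TGFβ minus untreated, limma voom, with SE) for the 41 tested genes at 8, 24 and 48 h, grouped by role and ordered by the average difference. Filled points had an adjusted p below 0.01. MRTFA, MYOCD, CNN1, ACTG1, CALD1 and PALLD lie to the right, SYNPO and DSTN to the left. Most monomer-binding and Arp2/3 genes lie close to 0, as do SRF at 24 and 48 h and MRTFB at 8 h.

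All 4 transcription regulators passed the F-test (100%, against 42.5% of all tested genes) with higher average levels after TGFβ. MRTFA had the largest average difference of the 4. MRTFA, the actin-sensing cofactor of SRF (gene on GRCh38 chr22:40410281-40636719), stood at 16.6, 16.3 and 17.5 TPM in the untreated libraries at 8 h and at 34, 34.1 and 31.4 TPM after TGFβ. At 24 h the libraries read 15.6, 14.2 and 15.7 untreated and 32.7, 24.6 and 30.3 treated, and at 48 h 15.9, 15.4 and 14.4 and 27.3, 27.9 and 25.5. Every treated library lay above every untreated one at these 3 times, while at 0 h the arms overlapped (17.8, 16.4 and 16.2 and 15.9, 14 and 18.9 TPM). The log2 difference was 1.08 ± 0.10 at 8 h (limma, adjusted p = 6.17e-08), 0.95 ± 0.11 at 24 h and 0.81 ± 0.11 at 48 h (adjusted p = 2.80e-07 and 2.76e-06). The change from 0 h to 8 h differed between the arms by nearly the same amount, 1.09 ± 0.15 (limma, adjusted p = 2.35e-05).

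SRF itself, the DNA-binding partner, differed at 8 h. The untreated libraries read 14.5, 14.2 and 14.2 TPM and the treated ones 19.2, 18.8 and 18.1 TPM at 8 h, a log2 difference of 0.44 ± 0.07 (limma, adjusted p = 0.000119) with no overlap. In untreated cells SRF stood at 14.7, 13.1 and 14.6 TPM at 0 h, 17.9, 16.4 and 17.3 at 24 h and 18.2, 17.4 and 17.1 at 48 h. The TGFβ arm stood at 14.5, 12.1 and 14.3, 19, 16.5 and 18.1 and 18.9, 19.7 and 18.6 at these times. The arms overlapped at 24 h, and at 48 h the treated libraries lay just above the untreated ones, with log2 differences of 0.09 ± 0.07 and 0.14 ± 0.08 that were not past the threshold (limma, adjusted p = 0.394 and 0.155). Its change since time 0 (0.47, limma, adjusted p = 0.00421) was not past it without any one of 6 of the 12 libraries at 0 and 8 h (adjusted p 0.0114 to 0.0159). These were the untreated 0 h replicates 1 and 3, the untreated 8 h replicates 2 and 3, and the TGFβ 8 h replicates 1 and 2.

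MRTFB, the second actin-sensing cofactor, moved little and late. At 8 h it stood at 12.5, 10.6 and 11.3 TPM untreated and 9.86, 11.5 and 10.9 treated, at 24 h at 11.9, 11.8 and 10.3 and 11.4, 11.2 and 12, and at 48 h at 13, 11.6 and 10.3 and 14, 13.1 and 13.3. At 0 h the values were 10.8, 9.9 and 10.4 and 6.76, 10.7 and 11.3, with TGFβ arm replicate 1 the lowest of all 24 libraries. The arms did not overlap at 48 h alone, where the log2 difference was 0.28 ± 0.06 (limma, adjusted p = 0.00111, and 0.0101 without the untreated replicate 3), but on length-corrected values the call was not made (adjusted p = 0.218 on log2(TPM + 1)). MYOCD, the cofactor that drives the smooth muscle programme, was at the edge of detection, with 12 to 44 counts a library. In untreated cells it read 0.093, 0.052 and 0.126, 0.075, 0.075 and 0.111, 0.063, 0.049 and 0.21 and 0.161, 0.146 and 0.077 TPM over the 4 times. In the TGFβ arm it read 0.044, 0.1 and 0.085, 0.126, 0.169 and 0.104, 0.162, 0.193 and 0.177 and 0.176, 0.102 and 0.211. The TPM ranges overlapped at every time. On counts MYOCD was called at 24 h (1.08 ± 0.20, limma, adjusted p = 0.000147) and 48 h (0.93 ± 0.20, adjusted p = 0.000785), but on log2(TPM + 1) the adjusted p was 0.202 and 0.565, and on length-scaled counts the difference at 48 h was 0.37.

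**Figure D2:**
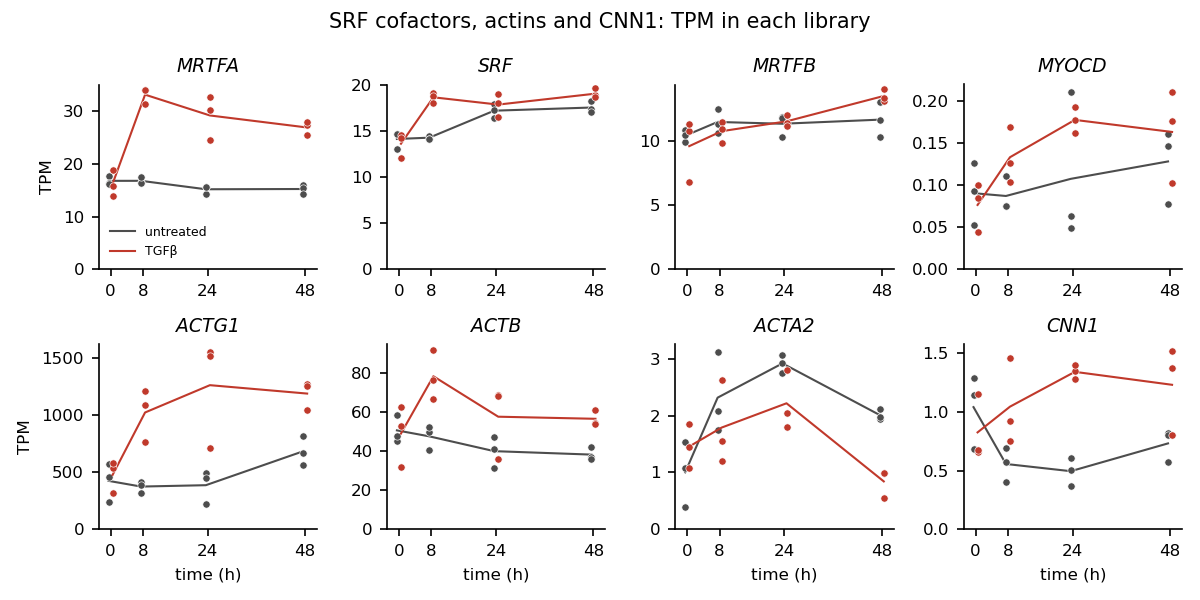
TPM against time (h) for the 4 regulators, 3 actins and CNN1. Each point is 1 of 24 libraries, and lines join the group means of untreated (grey) and TGFβ-treated (red) cells. MRTFA separates by 8 h and stays apart, SRF differs at 8 h, and ACTA2 is lower after TGFβ at 48 h.

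Among the 5 actins, the cytoplasmic ACTG1 was higher after TGFβ at all 3 times, and the smooth muscle actin ACTA2, the usual marker of myofibroblasts, was not higher at any. The CArG box, the element that SRF binds, was searched in the promoters, and the windows of the members called with at least a 2-fold difference that hold a box are shown. ACTB was called below 2-fold and so fell outside this set. ACTA2 was called lower by more than 2-fold at 48 h, and no window of it with a box was found. Members without a window, and boxes that depart from the strict form given next, are not covered. Within 250 bases before to 50 after the gene start (RefSeq windows, GRCh38.p14), a CArG box in the strict form CC, then 6 bases of A or T, then GG, on either strand, was found in 454 of 35116 windows (1.29%) and at 438 of 27305 genes (1.6%), and at 5 of the 34 members with a window (ACTC1, ACTG1, ACTG2, CNN2 and SRF). The boxes of the 2 members of these 5 that were called with at least a 2-fold difference are in capitals in the 250 bases upstream of their start, on the strand of the gene, for ACTG1 at chr17:81512800-81513049 (minus strand) and for ACTC1 at chr15:34795550-34795799 (minus strand).
ACTG1: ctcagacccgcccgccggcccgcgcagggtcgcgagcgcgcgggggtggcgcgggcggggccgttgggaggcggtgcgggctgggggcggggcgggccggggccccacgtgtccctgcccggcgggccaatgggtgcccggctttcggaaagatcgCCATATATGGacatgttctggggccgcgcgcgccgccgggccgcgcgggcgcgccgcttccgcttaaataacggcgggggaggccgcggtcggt
ACTC1: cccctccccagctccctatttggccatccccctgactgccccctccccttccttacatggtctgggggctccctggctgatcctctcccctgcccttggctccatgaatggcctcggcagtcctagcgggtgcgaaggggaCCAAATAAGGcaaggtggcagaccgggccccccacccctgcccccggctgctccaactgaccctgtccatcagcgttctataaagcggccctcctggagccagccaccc
The first base of the box lay 94 bases upstream of the start in ACTG1 and 109 in ACTC1. SRF carries CCATATAAGG and CCATAAAAGG at 30 and 10 bases, CNN2 carries CCTTATAAGG at 89, and the untested ACTG2 carries CCTTATATGG at 110 and CCTTTTTAGG at 73. For comparison, the short SMAD element CAGAC lay in 18 of 34 member promoters against 50% of all genes, and the TEAD element GGAATG in 9 of 34 against 16.7%. A match is a string of letters and no measured site, and where there was no match these letters are merely not in the window.

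For ACTG1 (GRCh38 chr17:81509413-81523847) the untreated libraries read 412, 391 and 318 TPM at 8 h and the treated ones 1217, 1092 and 765. At 24 h they read 489, 222 and 447 and 1556, 715 and 1521, and at 48 h 821, 665 and 564 and 1273, 1253 and 1045. The start values at 0 h were 571, 239 and 460.0 and 532, 319 and 579. Treated and untreated libraries were apart at 8, 24 and 48 h and overlapped at 0 h. The TGFβ arm was already higher at 0 h by 0.52 ± 0.23 on the log2 scale, which was not called (limma, unadjusted p = 0.034). The change from 0 h to 8 h differed between the arms by 1.03 ± 0.32, which was not past the threshold (limma, adjusted p = 0.036). Replicate 2 was the lowest of its group in both arms at 0 and at 24 h. The log2 difference was 1.56 ± 0.22 at 8 h and 1.95 ± 0.22 at 24 h (limma, adjusted p = 1.35e-05 and 3.56e-07). At 48 h it was 0.90 ± 0.22 (adjusted p = 0.00201), no longer past the threshold without the untreated 48 h replicate 2 or 3 (0.0102 and 0.0129) or on log2(TPM + 1) (0.0683). ACTB, the other cytoplasmic actin, read 49.5, 52.4 and 40.4 TPM untreated and 91.5, 76.3 and 66.7 treated at 8 h. The pairs were 40.8, 31.4 and 47.3 against 68.5, 35.6 and 68.2 at 24 h and 42, 36.7 and 35.6 against 61, 54.3 and 53.8 at 48 h. The 0 h values were 58.6, 45.2 and 47.6 and 52.6, 31.7 and 62.2. Its arms were apart at 8 and 48 h and it was called at 8 h (0.76 ± 0.20, limma, adjusted p = 0.00677). That call was not made without any one of the 6 libraries at 8 h (0.0125 to 0.0362). Both sums are incomplete. The files hold no transcript that the annotation now counts as the main one of ACTB. Coding transcripts made up 27.8% of the ACTB sum, and the main one of ACTG1 carried 1.5% of its sum. These values therefore stand for the transcripts that could be matched, and no level was compared between actins.

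ACTA2 (GRCh38 chr10:88935074-88991339) read 1.94, 1.98 and 2.12 TPM in untreated and 0.981, 0.555 and 0.986 TPM in treated libraries at 48 h, with no overlap. At 24 h it read 2.76, 2.93 and 3.07 and 1.8, 2.81 and 2.04, and at 8 h 3.12, 1.74 and 2.09 and 2.62, 1.2 and 1.55. The 0 h libraries stood at 1.54, 0.392 and 1.07 and 1.07, 1.85 and 1.44, and the highest values of all were in untreated cells. The log2 difference at 48 h was -1.41 ± 0.42 (limma, adjusted p = 0.00933) and ACTA2 fell between 24 and 48 h in the TGFβ arm (-1.59 ± 0.41, adjusted p = 0.00462), on 10 to 126 counts a library. The call at 48 h was not made without any one of the 6 libraries at 48 h (0.0122 to 0.0493) or of 8 others (0.0109 to 0.0119). ACTC1 (GRCh38 chr15:34790107-34795589), the cardiac actin, rested on 1 to 20 counts a library. It read 0.108, 0.07 and 0.119 TPM untreated and 0.268, 0.212 and 0.151 treated at 48 h. Earlier libraries read 0.156, 0.008 and 0.026 against 0.177, 0.074 and 0.158 at 24 h and 0.05, 0.271 and 0.2 against 0.243, 0.086 and 0.172 at 8 h. Those of 0 h read 0.264, 0.335 and 0.081 and 0.254, 0.51 and 0.116. The arms were apart at 48 h, with a log2 difference of 1.36 ± 0.40 (limma, adjusted p = 0.00932). It was past the threshold neither in edgeR (0.0102) nor in DESeq2 (0.019), nor without any one of the 6 libraries at 48 h (0.0133 to 0.0393) or of 9 others (0.0109 to 0.0127). ACTG2 was not tested, and its libraries read 0.155, 0 and 0.151, 0.105, 0.08 and 0.058, 0.141, 0.082 and 0.051 and 0, 0 and 0 TPM in untreated cells and 0, 0.094 and 0.067, 0.325, 0.24 and 0.113, 0.128, 0.301 and 0.148 and 0.099, 0.189 and 0.145 in the TGFβ arm over the 4 times.

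Of the 7 contractile filament proteins 6 passed the F-test (85.7%, against 42.5% of all tested genes). At 48 h all but CNN3 were called higher after TGFβ (against 16.1% of all genes). CALD1 (caldesmon, an actin- and tropomyosin-binding regulator of contraction) rose in steps. It read 82.5, 80.6 and 83.1 TPM untreated and 99.3, 96.8 and 97.6 treated at 8 h. By 24 h these were 90.3, 99.8 and 91 against 122.9, 154 and 126, and by 48 h 86.7, 87.6 and 88 against 148, 152 and 154. Before treatment, at 0 h, the values were 72.7, 84.2 and 72.1 untreated and 66.8, 86.1 and 74 in the TGFβ arm. No treated library overlapped the untreated ones from 8 h on. The log2 difference was 0.30 ± 0.08, then 0.57 ± 0.08, then 0.86 ± 0.08 (limma, adjusted p = 0.00511, 2.76e-06 and 6.26e-09). The gain from 8 to 48 h was itself past the threshold (0.56, adjusted p = 0.000623), while the call at 8 h was not made without any one of the 6 libraries at 8 h (0.0164 to 0.0195).

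CNN1 (basic calponin, a marker of differentiated smooth muscle, GRCh38 chr19:11538767-11550323) had the largest average log2 difference of the tested members on counts, 1.71 ± 0.17, at 0.37 to 1.52 TPM and 5.9 to 54.4 counts a library. It read 0.692, 0.405 and 0.571 TPM untreated and 0.919, 0.754 and 1.46 treated at 8 h. The pairs were 0.61, 0.37 and 0.503 against 1.28, 1.35 and 1.4 at 24 h and 0.82, 0.575 and 0.8 against 0.8, 1.52 and 1.38 at 48 h. Its 0 h values were 0.687, 1.14 and 1.29 and 0.654, 0.672 and 1.15. The arms were apart at 8 and 24 h and overlapped at 48 h, where TGFβ replicate 1 lay below an untreated library. On counts the difference was 1.56 ± 0.32, 1.89 ± 0.32 and 1.70 ± 0.27 (limma, adjusted p = 0.000861, 6.39e-05 and 2.44e-05). On log2(TPM + 1) the adjusted p was 0.0661 at 8 h and 0.0571 at 48 h, and coding transcripts made up 38.9% of the CNN1 sum. On length-scaled counts the difference was smaller, 0.98 at 8 h and 0.71 at 48 h (limma, adjusted p = 0.0392 and 0.0901), and at 48 h that of ACTG1, 0.84, lay above it. CNN2, the calponin of non-muscle cells, stood at 87.3 ± 1.11 TPM untreated and 119 ± 3.05 TPM treated at 8 h (mean ± SD, n = 3) and at 124 ± 2.75 and 158 ± 5.58 at 48 h. This gave log2 differences of 0.52 ± 0.08 at 8 h and 0.37 ± 0.08 at 48 h (limma, adjusted p = 3.00e-05 and 0.000555). Its change from 0 h at 8 h (0.46, adjusted p = 0.00803) was not past the threshold without any one of 16 of the 24 libraries (0.0102 to 0.0316). CNN3, the acidic calponin, was not called between the arms and read 181 ± 6.04 TPM untreated and 186 ± 18 treated at 0 h, and 286 ± 4.14 and 306 ± 7.89 at 48 h.

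TAGLN2 (transgelin 2, a calponin relative of non-muscle cells) was by far the most abundant of this group. Its level in untreated cells went from 1354 ± 34.3 TPM at 0 h to 817 ± 4.04 at 24 h (mean ± SD, n = 3), and in treated cells from 1362 ± 15.6 to 1220.3 ± 15.6. The arms were apart at 8, 24 and 48 h with log2 differences of 0.37 ± 0.04, 0.61 ± 0.04 and 0.32 ± 0.04 (limma, adjusted p = 4.65e-07, 1.24e-10 and 2.07e-06). Higher here thus meant a smaller decline from the starting level: no treated group mean was above 1362 TPM, the mean of that arm at 0 h. TAGLN (SM22, a standard smooth muscle marker) was read at 1.82, 1.81 and 2.02 TPM untreated and 2.69, 4.33 and 3.29 treated at 48 h, with no overlap, and between 0.795 and 2.44 TPM in all libraries of the earlier times. The difference at 48 h was 0.78 ± 0.15 (limma, adjusted p = 0.000282, and 0.0187 on log2(TPM + 0.1)), and the rise from 24 to 48 h in treated cells was 1.01 ± 0.16 (adjusted p = 4.07e-05). Its leading transcript shares 57.2% of its 31-base words with the neighbouring PCSK7, so part of these reads may belong to either gene. LMOD1 (leiomodin, a filament nucleator of smooth muscle) read 0.961, 0.989 and 1.01 TPM untreated and 0.589, 0.721 and 0.714 treated at 24 h but 0.471, 0.487 and 0.441 and 0.786, 0.662 and 0.66 at 48 h. At 8 h the libraries had overlapped, at 0.567, 0.528 and 0.445 and 0.32, 0.409 and 0.462. LMOD1 was below untreated cells at 24 h (-0.52 ± 0.14, limma, adjusted p = 0.00485) and above them at 48 h (0.61 ± 0.17, adjusted p = 0.00478). Over that interval it fell by 1.14 on the log2 scale in untreated cells (limma, adjusted p = 4.22e-06), and in treated cells no change was called (adjusted p = 0.996). Neither call of LMOD1 was made in every fit, with 0.0118 to 0.0339 at 24 h without the untreated replicate 1 or 3 or the TGFβ replicate 1 and 0.0101 to 0.0325 at 48 h without any one untreated replicate or the TGFβ replicate 1.

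**Figure D3:**
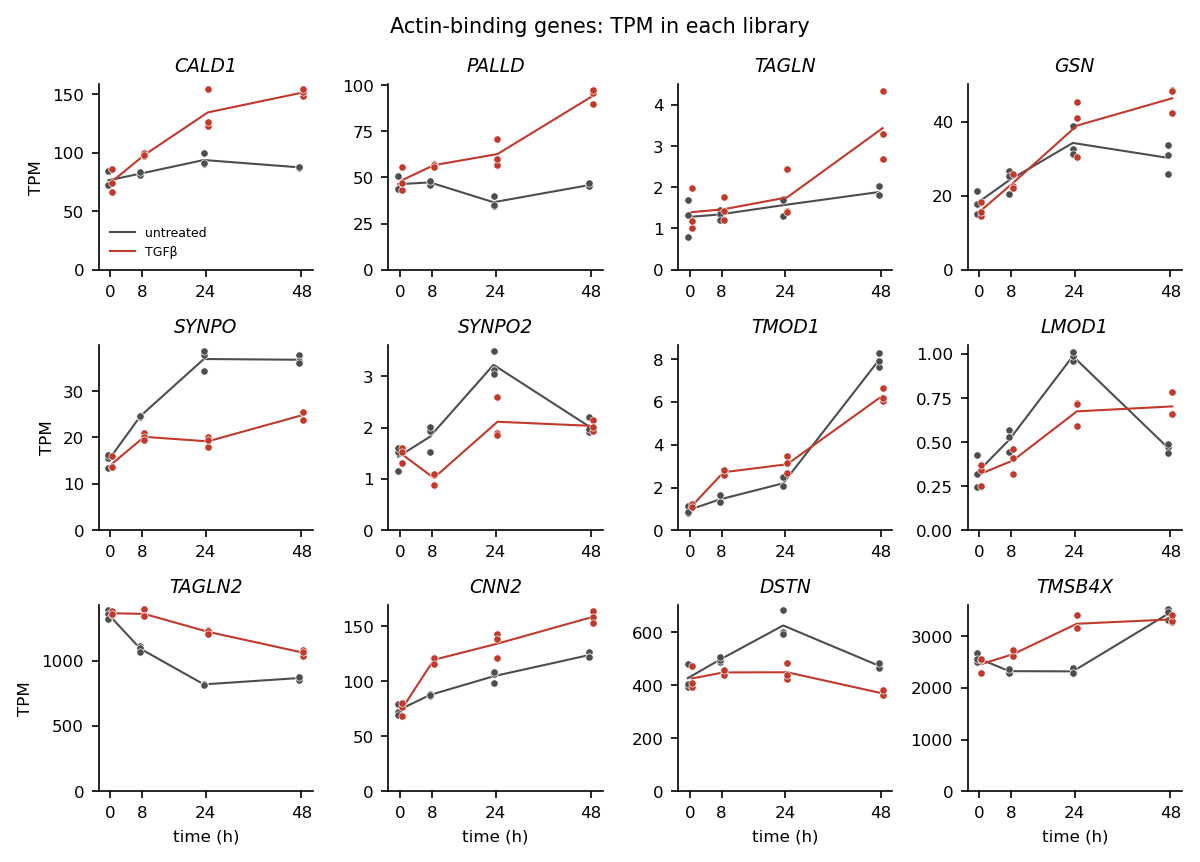
TPM against time (h) for 12 actin-binding genes, with 1 point a library and lines through the means of untreated (grey) and TGFβ-treated (red) cells. CALD1 and PALLD draw apart over time, SYNPO and DSTN stay lower after TGFβ, and TMOD1, LMOD1, SYNPO2 and TMSB4X have arms whose distance changes between 8 and 48 h.

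Among the 10 genes of monomer binding and severing 4 passed the F-test (40%, near the 42.5% of all tested genes), 3 higher and 1 lower. No difference reached 2-fold. DSTN (destrin, a depolymerizing factor that severs filaments) was the lower one. It read 599.7, 685 and 592 TPM untreated and 425, 482 and 439 treated at 24 h and 471, 467 and 485 and 363, 363 and 381 at 48 h, with no overlap. Both arms began at like values, 395, 480.0 and 404 and 393, 474 and 409 TPM. The log2 difference was -0.42 ± 0.07 at 24 h and -0.33 ± 0.07 at 48 h (limma, adjusted p = 5.78e-05 and 0.000909). Scaled to 4 qRT-PCR reference genes it was 0.023 and 0.025 and not called. Under that scaling the median of all genes moved to 0.43 at 24 h and 0.34 at 48 h, so that DSTN stayed 0.41 and 0.31 below that median. The paralogs CFL1 and CFL2, the cofilins, were not called, with differences of 0.06 ± 0.05 and -0.15 ± 0.08 at 24 h.

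TMSB4X (thymosin beta 4, the main monomer-holding peptide) was higher after TGFβ at 8 and 24 h and level at 48 h. It read 2291, 2382 and 2292 TPM untreated and 3165, 3416 and 3153 treated at 24 h, and 3309, 3537 and 3472 and 3287, 3297 and 3407 at 48 h. The arms were apart at 24 h and overlapped at 48 h, with log2 differences of 0.26 ± 0.05 at 8 h, 0.51 ± 0.05 at 24 h and -0.02 ± 0.05 at 48 h (limma, adjusted p = 0.000211, 1.20e-08 and 0.787). Untreated cells rose from 24 to 48 h (0.51 ± 0.05, adjusted p = 1.53e-08). The leading transcript shares 51.7% of its 31-base words with other genes, mostly processed copies. WDR1, which assists cofilin, and CAP1, which recycles monomers, were higher at 8 h by 0.28 ± 0.06 and 0.24 ± 0.04 and at 24 h by 0.35 ± 0.06 and 0.27 ± 0.05 (limma, adjusted p = 0.000792, 0.000391, 5.38e-05 and 4.93e-05). GSN (gelsolin, a calcium-dependent severing protein) read 31.1, 33.6 and 25.9 TPM untreated and 48.5, 48.3 and 42.2 treated at 48 h. The difference was 0.55 ± 0.15 (limma, adjusted p = 0.00636). It was not called without the untreated replicate 1 or 3 or the TGFβ replicate 1 or 2 of 48 h (0.0264 to 0.0366). Nor was it called on protein-coding transcripts only (0.0192) or with library totals (0.0144). Coding transcripts made up 53.6% of the GSN sum. The profilins PFN1 and PFN2 and thymosin beta 10 (TMSB10) were not called at any time, with log2 differences from -0.08 to 0.21.

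Of the 4 end-capping genes TMOD1 and CAPZB passed the F-test (50%, against 42.5% of all tested genes). TMOD1 (tropomodulin 1, a pointed-end cap) read 1.35, 1.34 and 1.64 TPM untreated and 2.72, 2.59 and 2.84 treated at 8 h. By 24 h these were 2.06, 2.05 and 2.49 against 3.46, 3.14 and 2.67, and by 48 h 7.62, 8.3 and 7.9 against 6.67, 6.03 and 6.18. The 0 h libraries read 1.14, 0.801 and 0.861 untreated and 1.1, 1.21 and 1.08 in the TGFβ arm. The treated libraries lay above the untreated ones at 8 and 24 h and below them at 48 h. The log2 difference was 0.98 ± 0.12, 0.51 ± 0.11 and -0.32 ± 0.09 (limma, adjusted p = 1.83e-06, 0.000834 and 0.00442). Both arms rose from 24 to 48 h, by 1.80 ± 0.10 in untreated and 0.96 ± 0.10 in treated cells. The difference at 48 h was 0.032 with the reference genes (-0.31 relative to the median of all genes, which that scaling moved to 0.34) and was not called there, in edgeR (0.019), or without the untreated replicate 2 or 3 or the TGFβ replicate 2 or 3 of 48 h (0.0144 to 0.0235). The leading transcript of TMOD1 shares 49.8% of its 31-base words with the adjacent TSTD2. CAPZB, a subunit of the barbed-end capping protein, was higher by 0.20 ± 0.03 at 8 h (limma, adjusted p = 8.95e-05), and its call at 24 h (0.11 ± 0.03, adjusted p = 0.0081) was not made without any one of the 6 libraries at 24 h (0.0162 to 0.0305) or of 9 others (0.0102 to 0.0115). CAPZA1 and TMOD3 were not called between the arms.

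Among the 7 genes of branched nucleation 1 passed the F-test (14.3%, against 42.5% of all tested genes). This was ARPC5, a subunit of the Arp2/3 complex, with 277 ± 4.1 TPM untreated and 318 ± 6.93 treated at 48 h (mean ± SD, n = 3) and a log2 difference of 0.23 ± 0.05 (limma, adjusted p = 0.00059). Its smaller calls at 8 h (0.20) and 24 h (0.18) were not made without 1 of 4 libraries at 8 h (all but the untreated replicates 1 and 3, adjusted p 0.0107 to 0.0181) or 1 of 3 at 24 h (the untreated replicates 1 and 3 and the TGFβ replicate 2, 0.0149 to 0.032). The other subunits ARPC1B, ARPC2, ACTR2 and ACTR3, the branch stabilizer CTTN and the activator WASL had log2 differences between -0.11 and 0.46 with no call. The ARPC1B sum was 54.2% a retained-intron transcript and lacks the main one.

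Among the 5 bundling and scaffold genes PALLD was higher after TGFβ and both synaptopodins lower. PALLD (palladin, a stress fibre scaffold that binds alpha-actinin, GRCh38 chr4:168497052-168928457) read 47.9, 46.1 and 47.9 TPM untreated and 57.2, 56.9 and 55.7 treated at 8 h. By 24 h these were 34.4, 40.0 and 35.2 against 57, 70.9 and 60.0, and by 48 h 45.3, 45.3 and 46.9 against 95.6, 89.6 and 97.4. At 0 h the libraries read 44.5, 50.7 and 43.7 untreated and 43.2, 55.4 and 46.9 in the TGFβ arm. From 8 h on the arms did not overlap, and the untreated libraries ended where they began. The log2 difference was 0.27 ± 0.06, 0.78 ± 0.06 and 1.03 ± 0.06 (limma, adjusted p = 0.00127, 4.59e-10 and 2.80e-12), with a gain from 8 to 48 h of 0.76 (adjusted p = 4.10e-07). SYNPO (synaptopodin, a stress fibre protein that binds alpha-actinin) read 37.7, 34.3 and 38.7 TPM untreated and 20.1, 17.9 and 19.5 treated at 24 h and 37.7, 36.4 and 36.1 and 25.4, 25.4 and 23.7 at 48 h. Both arms had begun lower, at 15.7, 13.3 and 16.2 and 13.6, 13.6 and 16, and they did not overlap from 8 h on. Untreated means went up from 15.1 to 36.7 TPM over 48 h and treated means from 14.4 to 24.9. The lower value after TGFβ (-0.91 ± 0.07 at 24 h and -0.55 ± 0.07 at 48 h, limma, adjusted p = 5.68e-10 and 1.01e-06) was a smaller increase. SYNPO2 (myopodin, of the same family) read 1.94, 1.52 and 2.01 TPM untreated and 0.875, 1.08 and 1.1 treated at 8 h, without overlap. It read 3.13, 3.48 and 3.05 and 1.9, 2.59 and 1.85 at 24 h, again apart, and 1.91, 1.97 and 2.2 and 2.15, 1.93 and 2.01 at 48 h, where the arms overlapped. It was below untreated cells at 8 h and 24 h (-0.86 ± 0.11 and -0.65 ± 0.09, limma, adjusted p = 3.65e-06 and 7.66e-06) and not apart from them at 48 h. Fascin (FSCN1), a bundler of filopodia, was not called (289.5 ± 9.93 TPM untreated and 314 ± 17.3 treated at 48 h), and villin (VIL1), the bundler of microvilli, held 0 to 14.5 counts a library.

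The difference between the arms changed from 8 to 48 h for 6 of the 41 members (14.6%, against 14% of all genes). It went upward for CALD1, LMOD1, PALLD and SYNPO2 (against 6.69%) and downward for TMSB4X and TMOD1 (7.34%). The call of LMOD1 was lost without any one of 13 libraries (limma, adjusted p 0.0103 to 0.0271) and that of TMSB4X without any one of 5 (0.0103 to 0.0134). Levels also moved with time in both arms. From 24 to 48 h 15 members changed in untreated cells (36.6%, against 28.4%), 5 up (14.7%) and 10 down (13.6%). In treated cells 18 changed (43.9%, against 25.8%), 6 up (12.4%) and 12 down (13.4%). PFN1 is an example, with 939.5 ± 107 TPM at 24 h and 684 ± 13.6 at 48 h in untreated cells and 1010.3 ± 187 and 772 ± 9.49 in treated cells, a change of -0.51 ± 0.10 and -0.48 ± 0.10 on the log2 scale (limma, adjusted p = 0.000318 and 0.000611). CFL1, CAPZA1, CAPZB, ARPC2, ARPC5 and DSTN went the same way in both arms, and CTTN, TMOD1 and PALLD went up in both.

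Shares of single transcripts within a gene were compared for 8 members (CALD1, PALLD, SYNPO, SYNPO2, TAGLN, GSN, MRTFA and MRTFB), over 32 transcripts with at least 10% of the gene in some group. In an exact permutation test that exchanged the arms within 8, 24 and 48 h (8000 relabellings, two-sided, smallest p 0.00025), 5 shares passed after adjustment over the 32. PALLD-215 took 12.7, 14 and 13.7% of PALLD in untreated and 25.2, 25.4 and 24% in treated libraries at 8 h, and 17.2, 13.4 and 14.1% and 21.2, 22.2 and 20.6% at 48 h (8.31 points higher on average, exact adjusted p = 0.00267). PALLD-209, the leading transcript, took 10.4 points less of the gene (exact adjusted p = 0.00267), while its own level at 48 h was 34.1 TPM untreated and 63.9 TPM treated. At 8 h both shares were apart without overlap between the arms. At 0 h PALLD-215 took 15.1% on average in untreated and 14.7% in TGFβ arm libraries, but PALLD-209 already stood at 60.5, 53.6 and 60.4% against 57, 39.4 and 58.4%, lower on average in the TGFβ arm (58.2 and 51.6%) with overlap.

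**Figure D4:**
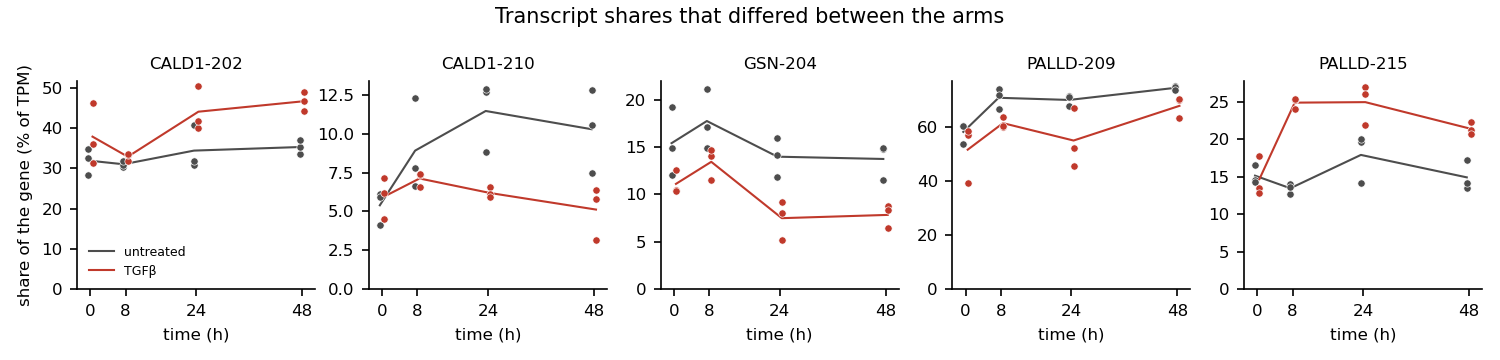
Share of the gene's TPM (%) against time (h) for the 5 transcripts that passed, with 1 point a library and lines through the means of untreated (grey) and TGFβ-treated (red) cells. CALD1-202 and PALLD-215 take more of their gene after TGFβ, and CALD1-210, GSN-204 and PALLD-209 take less, while the means of CALD1-202, GSN-204 and PALLD-209 already differ the same way at 0 h.

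CALD1-202, a coding transcript that led the gene, took 7.65 points more after TGFβ, with 35.3% untreated and 46.7% treated at 48 h on average. Its mean share was 32% and 37.9% in the same arms at 0 h, before exposure, and 31.1% and 32.9% at 8 h. CALD1-210, annotated as a target of nonsense-mediated decay, took 4.08 points less (exact adjusted p = 0.0064 for both), and at 0 h it stood at 5.4% untreated and 5.96% in the TGFβ arm. GSN-204 took 5.57 points less (exact adjusted p = 0.00267), but it was lower in the TGFβ arm at 0 h too, at 12.5, 10.5 and 10.4% against 12.1, 14.9 and 19.2% (means 11.1 and 15.4%, with overlap). The change of a share since 0 h was not tested, so for PALLD-209, CALD1-202 and GSN-204 the part of the gap that was there at the start is not separated from the treatment. Such shares come from kallisto's division of reads among overlapping transcripts, whose error is not in the test, and with single libraries left out the number that passed ranged from 2 to 6. The lowest count, 2, was without the untreated 24 h replicate 1 or 3, and it was 3 without the untreated 8 h replicate 1, the TGFβ 8 h replicate 2 or 3, or any 1 TGFβ 24 h replicate.

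Other genes of the pathway, from lists outside the 42, were read in the same fit. These lists too were chosen with earlier results of these data known, so their shares are descriptive and no test. Of 19 tested targets of SRF and MRTF 17 passed the F-test over 8, 24 and 48 h (89.5%, against 42.5% of all tested genes), 16 higher (against 21%) and 1 lower (21.5%). Among them were TPM1 (tropomyosin 1, which coats actin filaments) at 183 ± 3.48 TPM untreated and 1718 ± 52.3 treated at 48 h, CCN2 (a matricellular protein) at 25.6 ± 0.696 and 99.9 ± 3.62, and PDLIM7 (a stress fibre adaptor) at 86.1 ± 2.62 and 423 ± 20.9 (mean ± SD, n = 3). Of the 8 immediate early genes listed as targets of SRF with ternary complex factors all 8 passed (100%, against the same 42.5%), 5 higher and 3 lower. Whether SRF acted on them here was not tested. EGR2 was 0.554 ± 0.116 TPM untreated and 4.02 ± 0.235 treated at 8 h and JUNB 23.9 ± 0.675 and 66.6 ± 2.01. EGR1 was lower at 24 h with 19.3 ± 0.49 and 7.12 ± 0.296 TPM. Of 42 other regulators of actin 26 passed (61.9%, against 42.5%), 21 higher and 5 lower, led by ENAH (a filament elongation factor), LIMK1 (the kinase that inactivates cofilin) and COTL1 (coactosin), with average log2 differences of 1.52, 1.03 and 0.92. The members' median average difference of 0.15 lay near that of the 42 other regulators, 0.14, and below that of the 19 targets, 0.63, with -0.02 for all genes.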

How the data were processed

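RNA of SK-MES-1 cells from 2 arms and 4 time points was sequenced (24 libraries, 8 groups of 3, numbered 1 to 3 by the labels). The labels name no separate experiments, so p-values measure the spread between these libraries. The authors quantified reads with kallisto 0.43.0 against Ensembl transcripts of GRCh38, and deposited for 173259 transcripts an estimated count (not whole, not normalized), an effective length and a TPM. Each library held 46613589 to 77964234 estimated counts.

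From these, transcripts were assigned to genes by GENCODE 44 (155518 matched, 89.8%; the 17741 others, 8 of them above 1000 TPM, were not used) and summed. Replicates differed beyond counting noise in every group (chi-square per gene 3.17 to 60.5). At 0 and 24 h the pairs that held replicate 2 differed most in both arms. In the TGFβ arm they gave 60.5 and 40.2 at 0 h (16.8 for replicates 1 and 3) and 47 and 35.6 at 24 h (6.74). In untreated cells they gave 22.7 and 14.7 at 0 h (9.13) and 20.1 and 18.9 at 24 h (4.13). Gene counts were rounded. A gene entered the test when 3 or more libraries held a count of at least 10. The test was limma 3.58.1 (voom, TMM, 1 mean per group over all 24 libraries) in R 4.3.3. Contrasts were the arms at 0, 8, 24 and 48 h, an F-test of 8, 24 and 48 h, the change from 0 h at 8 h, the change of the difference from 8 to 48 h, and 48 h against 24 h in each arm. The threshold was an adjusted p (Benjamini-Hochberg over 17453 genes) of 0.01. On simulated counts of 17201 genes for the F-test, limma called 56 of 66 genes changed by 0.5 on the log2 scale, 67 of 67 changed by 1, and 2 unchanged genes. The changed genes were not drawn from those with few counts, had the same shift at 8, 24 and 48 h, and varied independently between libraries. Genes with few counts or a change at a single time, and deviations shared by a library, are therefore not covered.

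The members and all lists (SRF and MRTF targets, immediate early SRF targets, other actin regulators, and squamous, smooth muscle and fibroblast, blood and endothelial markers) were chosen with earlier results of these data known. Values are given for every library for the actins, the 4 regulators and members called with at least 2-fold difference, and further members were added after their values were seen. From the first 3 of these lists the 3 genes with the largest average difference are named, and markers were named after their values were seen. Shares of the actin genes in their summed TPM, planned at first, were not formed because the sums of ACTB and ACTG1 are incomplete. Alternatives were edgeR 4.0.16, DESeq2 1.42.0, limma-trend on TPM with a pseudocount of 1 or of 0.1 before log2, other scalings and filters, length-scaled counts from the deposited effective lengths, a replicate block, and each library left out in turn. Protein-coding transcripts only, and the counts without ACTB, ACTG1 and ARPC1B, were chosen after seeing the data. Plots were drawn with matplotlib 3.10.9 from tables made with numpy 2.4.6 and pandas 2.3.3 under Python 3.11.15.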

Additional observations from a re-analysis of the deposited data

Results flagged for a closer look

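For 6 genes the difference between the arms at 48 h departed from that at 8 h by a test of the change itself (limma, log2 scale, 48 h minus 8 h). PALLD gained 0.763 (adjusted p = 4.1e-07) and CALD1 0.558 (0.000623), from differences that were already above 0 at 8 h. SYNPO2 gained 1.011 (3.3e-05), from below untreated cells to their level, and LMOD1 gained 0.905 (0.00811). Untreated cells changed by -0.778 in SYNPO2 and -1.136 in LMOD1 from 24 to 48 h. TMOD1 changed by -1.297 (1.09e-06) and TMSB4X by -0.276 (0.00349), and for both the rise of untreated cells from 24 to 48 h, 1.80 and 0.51, was part of the change. The call of LMOD1 was lost without any one of 13 libraries and that of TMSB4X without any one of 5. The 8 h and 48 h libraries carry different codes in the deposited names, so a change with time and a change of code cannot be told apart here. Groups of 3 libraries were too small for a search for single outlying libraries. By chi-square per gene, replicate 2 lay furthest from the others of its group at 0 and 24 h in both arms.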

How the results depend on the processing

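Of the 52 calls of members at 8, 24 and 48 h, 23 held in all 37 other settings and 39 held with each library left out in turn. With 1 library left out, members past the threshold ranged from 22 to 26 (F-test), 13 to 17 (8 h), 15 to 20 (24 h), 11 to 21 (48 h), 4 to 8 (change from 0 h), 4 to 7 (change from 8 to 48 h), 14 to 18 (48 against 24 h, untreated), 15 to 19 (the same, TGFβ) and 0 to 0 (0 h), and transcript shares from 2 to 6. With the 4 reference genes as library size, 36 members passed the F-test, 34 passed at 24 h and 30 at 48 h. The same scaling called 9841 of the 17453 tested genes at 24 h and 8308 at 48 h, against 5112 and 5686 in the main fit. It gave 12 members for the change from 8 to 48 h and 24 for 48 against 24 h in untreated cells. That scaling moved the median of all genes to 0.429 at 24 h and 0.339 at 48 h, and library totals moved it to -0.11 at 24 h. Before that shift is taken off, the sign turned for DSTN (0.023 at 24 h, 0.025 at 48 h), TMOD1 (0.032 at 48 h) and TMSB4X (0.023 for the change from 8 to 48 h). Among results that were not called in the main fit it turned for TMSB4X (0.334) and CTTN (0.331) at 48 h. The same held for PFN2 (0.43), CTTN (0.429), WASL (0.412) and FSCN1 (0.445) at 24 h. For the change from 8 to 48 h it held for TAGLN2 (0.25) and CFL1 (0.239). Relative to the shifted median DSTN stood at -0.406 and -0.314, TMOD1 at -0.307 and TMSB4X at -0.005 (48 h), with the sign they had before. Only the libraries of the time point gave 27 at 8 h, where 5260 of all tested genes were called, against 2859 in the main fit. log2(TPM + 0.1) gave 10 at 48 h and 3 for the change from 8 to 48 h, and library totals 4 for the change from 0 h. The cause was not tested. Counts by edgeR, DESeq2, other filters, protein-coding transcripts only, and without ACTB, ACTG1 and ARPC1B stayed within 1.5 times.

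Same-numbered libraries deviated together in 4 of 12 pairs (correlation above 0.1, range -0.06 to 0.248), 2 of them at 0 h and 2 at 24 h. The numbers were therefore not taken as pairs. A replicate block gave 12 members for the change from 0 h, kept all 52 calls and added 5, and for the change from 8 to 48 h LMOD1 was no longer called (0.904, limma, adjusted p = 0.0108). Depth limits ACTC1, ACTG2, MYOCD, CNN1 and VIL1, which held at most 54.4 counts in a library.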
